A study of Mus musculus with 8 samples.

Results

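Genes of the cell cycle phases and the CDK inhibitors that brake the cycle were followed in 4T1-Sca1+ and 4T1-Sca1- cells. The group holds 59 genes of the 16341 in the raw count table. They were matched by symbol to their Ensembl identifiers. By role, 11 act in G1, 4 are CDK inhibitors, 15 act in S phase and 29 act in G2 and mitosis. Of the 59, 58 passed the filter on low counts. The exception was Cdkn1c. The samples come from 4T1, a mammary carcinoma line of the mouse, split in 2 by SCA1, the cell surface product of Ly6a. Cells were stained for SCA1 and separated on magnetic columns into a CD45-negative Sca1+ fraction and a CD45-negative Sca1- fraction, with no treatment named and 4 RNA-seq libraries each. Both groups derive from the same line, and the source label gives parental 4T1 cells as the origin where the protocol speaks of stained tumor, so the groups are described by the marker alone. Whether the replicates came from separate sorts is not in the labels, so the p-values measure the spread between these libraries, which may be technical.

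A dividing cell passes from G1 through S phase, where DNA is copied, to G2 and mitosis. Cyclins bind and switch on cyclin-dependent kinases (CDKs) in turn, and CDK inhibitors hold these kinases back. D-type cyclins with Cdk4 or Cdk6, and then E-type cyclins with Cdk2, phosphorylate the retinoblastoma protein and free E2F factors, which drive S-phase genes. A later wave of mitotic genes is read in G2 under the MuvB complex with Mybl2 and Foxm1. In bulk RNA, a transcript's level mixes how many cells are in a phase with how much RNA each of them holds, and these cannot be told apart here.

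The 4T1-Sca1+ libraries held 15041995 to 16968215 counts each, and the 4T1-Sca1- libraries 13561804 to 16142836. Ly6a separated the groups, with normalized counts (counts divided by a size factor per library) of 145 to 193 against 0 to 4.11. All 8 epithelial markers listed were measured, with a summed normalized count of 58610 to 64250 in 4T1-Sca1+ and 60220 to 64980 in 4T1-Sca1- libraries. By gene they split (edgeR adjusted p under 0.05). Cdh1 (0.621-fold), Cldn4 (0.649-fold) and Krt7 (0.87-fold) were lower in 4T1-Sca1+ libraries. Krt8 (1.24-fold) and Krt18 (1.3-fold) were higher, and 3 were not called. The 18 leukocyte markers summed to 411.9 to 474.4 in 4T1-Sca1+ against 234.0 to 271.1 in 4T1-Sca1- libraries. Of them, 13 held at most 10 counts in every library, Cd3d, Ms4a1, Adgre1 and Ly6g being at 0 or not counted. Ptprc, the gene of CD45, held at most 4 counts in any library. The 4 that passed the filter were all higher in 4T1-Sca1+ libraries (edgeR adjusted p under 0.05). These were S100a8 (5.2-fold), Csf1r (2.26-fold), Cd74 (1.92-fold) and Cd68 (1.56-fold). The 10 fibroblast markers summed to 634.5 to 670.9 against 395.2 to 468.2, most of it Pdgfra, with Col3a1, Lum and Thy1 at 0 or not counted. Of the 3 that passed the filter, Col1a1 (1.68-fold) and Pdgfra (1.55-fold) were higher in 4T1-Sca1+ libraries (edgeR adjusted p under 0.05). Postn did not differ. The 8 endothelial markers summed to 34.73 to 43.89 against 42.3 to 66.2. Only Tie1 passed the filter, and it was lower in 4T1-Sca1+ libraries (0.662-fold, edgeR adjusted p of 0.0121). Whether the marker RNA came from other cells or from the tumor cells themselves was not tested. Nor was any part of other cells in the results on the cell cycle genes. 4T1-Sca1+ replicate 3 stood apart from the other 3 libraries of its group. It was the lowest of the 4 for 35.4% of all tested genes and the highest for 33.7%, and results that rest on it are given with and without it.

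Most cell cycle genes differed little between the fractions, with the CDK inhibitors farthest apart by their median. By edgeR's quasi-likelihood test at an adjusted p under 0.05, 24 of the 58 tested members were higher in 4T1-Sca1+ cells, where 31.3% of all tested genes were, and 10 were lower, where 30.2% of all tested genes were. The share of members called either way was 58.6%, near the 61.5% among all tested genes. The median absolute log2 fold change (log2FC, 4T1-Sca1+ over 4T1-Sca1-) was 0.17 over the members and 0.24 over the 11717 tested genes. For 37 of 58 members (63.8%) the log2FC lay within 0.2 of 0, compared with 42.7% of all genes. Members and all genes were not matched for expression level, and the part of level in this difference was not tested. Only Cdkn1a and Ccnf were called with a change of at least 1.5-fold, both higher in 4T1-Sca1+ cells. Among all tested genes 15.7% changed that much, 11.7% higher and 4.08% lower. The 4 libraries of each group did not overlap for 30 members (51.7%), against 54.7% of all tested genes. In 21 of them the 4T1-Sca1+ libraries lay above (26.8% of all tested genes) and in 9 below (27.9%).

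**Figure D1:**
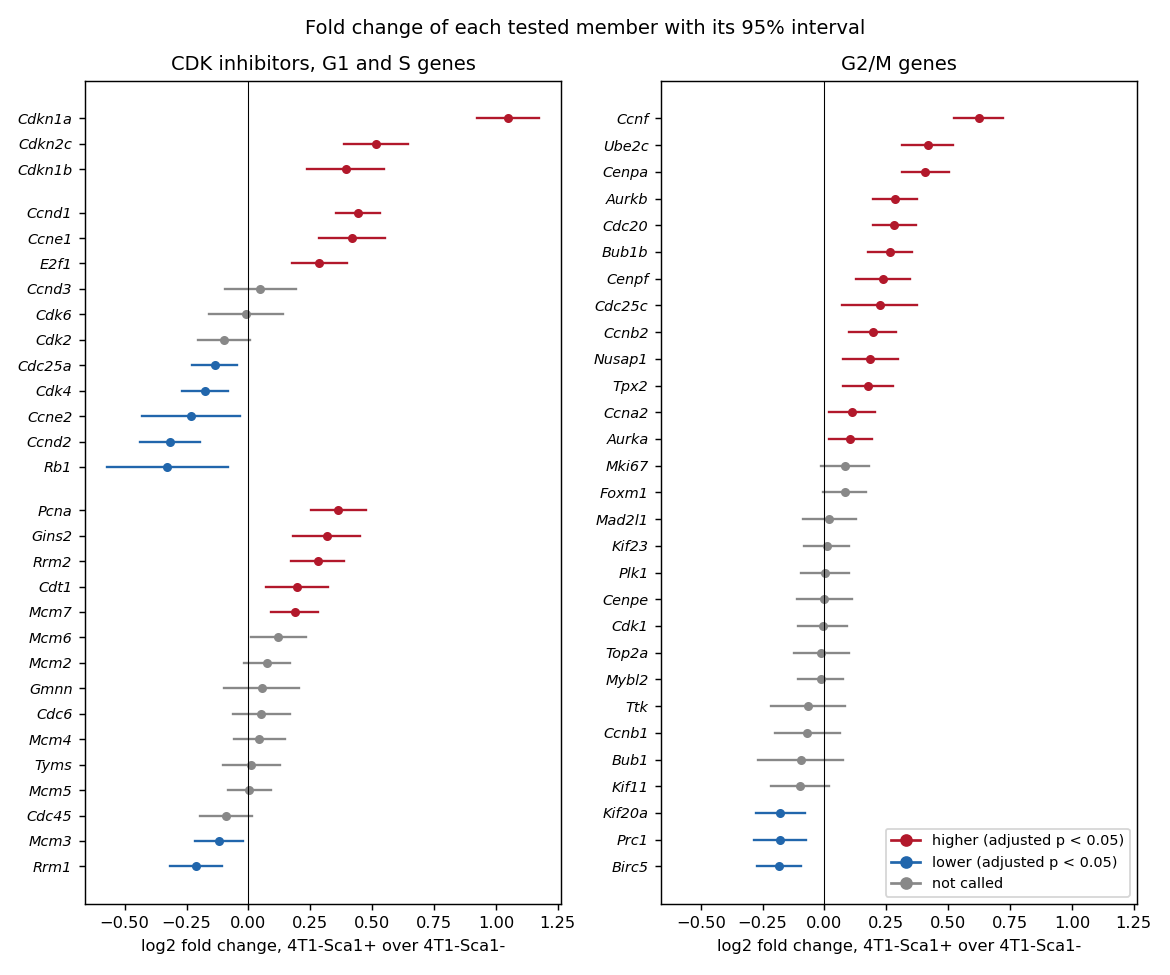
Each point is a tested member's log2 fold change (x axis, 4T1-Sca1+ over 4T1-Sca1-, from edgeR) and each line its 95% interval, with red for higher, blue for lower and grey for not called at an adjusted p under 0.05. The CDK inhibitors are at the top left, followed by G1 and then S genes, and G2/M genes are on the right. Cdkn1a (1.05) and Ccnf (0.62) lie farthest from 0.

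Promoter sequences are printed for a few members so that letters and levels can be read side by side. They come from RefSeq on GRCm38.p6, which held 50 promoters for 45 of the 59 genes. Each window ran from 250 bases before to 50 after a start site and was searched on both strands. The NF-Y box was CCAAT. The cell cycle genes homology region (CHR), bound by MuvB complexes, was TTTGAA or TTTAAA. The E2F site was TTTGGCGC, TTTCCCGC, TTTCGCGC or TTTGCCGC. The p53 site was the 20-letter consensus pair of half-sites without a spacer, with at most 1 letter off outside its fixed C and G letters. This search was added after the Cdkn1a sequence had been read. No motif contains another. A match describes letters and does not show that a factor binds there. The 150 bases before the most upstream start are printed 5′ to 3′ on the gene's strand, in lower case, with every match on either strand in capitals.

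Of the 4 CDK inhibitors, the 3 that were tested were all higher in 4T1-Sca1+ cells, with no overlap between the groups. Among all tested genes 31.3% were called higher, and for 26.8% every 4T1-Sca1+ library lay above every 4T1-Sca1- library. Cdkn1a encodes p21, which inhibits CDK2 complexes and is a classic target of p53. Its normalized counts were 656, 718, 711 and 688 in the 4T1-Sca1+ libraries and 316, 346, 344 and 347 in the 4T1-Sca1- libraries. Every 4T1-Sca1+ library was well above every 4T1-Sca1- library. The level was 2.07-fold higher in 4T1-Sca1+ cells, with a log2FC of 1.05 (SE 0.06) and an adjusted p of 1.22e-10 by edgeR. Cdkn2c encodes p18, an INK4 protein that binds CDK4 and CDK6. It had normalized counts of 2073, 2035, 2507 and 2231 in 4T1-Sca1+ and 1618, 1657, 1472 and 1490 in 4T1-Sca1- libraries. Its log2FC was 0.52 (SE 0.06, edgeR adjusted p of 1.4e-06). Cdkn1b encodes p27, which inhibits cyclin E-CDK2. It had 1121, 1224, 1497 and 1167 in 4T1-Sca1+ and 997, 1003, 878 and 966 in 4T1-Sca1- libraries, with a log2FC of 0.39 (SE 0.07, edgeR adjusted p of 0.000206). Replicate 3 was the highest 4T1-Sca1+ library for both Cdkn2c and Cdkn1b. Without it their log2FCs were 0.45 and 0.29, both still called. With offsets corrected for GC content Cdkn2c was at 0.34, also still called.

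Per length, in RPKM (counts scaled by exon length and library size), Cdkn2c was the most abundant inhibitor in both fractions, at 54.4 ± 5.13 in 4T1-Sca1+ and 38.0 ± 2.18 in 4T1-Sca1- cells (SD, n = 4). Cdkn1b followed at 18.2 ± 2.39 and 13.8 ± 0.805 RPKM. Cdkn1a was at 12.9 ± 0.496 and 6.24 ± 0.273 RPKM, the lowest of the tested inhibitors in both fractions. Cdkn1c, which encodes p57, was close to absent, with 1 count in all over the 4T1-Sca1+ and 5 over the 4T1-Sca1- libraries and at most 2 in any library, so no fold is given.

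The promoters of 2 inhibitors differed in their letters. Upstream of Cdkn1a (chr17:29090829-29090978, plus strand), the capitals mark the p53 site, which starts 51 bases before the most upstream start. Such a site is found in 22 of 32851 RefSeq promoters (0.067%) and in none of the other members with a promoter entry. The search was added after this sequence had been read, and it allows the 1 letter by which the sequence is off. The rarity of a match is therefore no test of the Cdkn1a promoter. Cdkn1a has another promoter entry, farther downstream, with no match to any of the motifs. Which start these cells use was not tested. Upstream of Cdkn1b (chr6:134920251-134920400, plus strand), they mark an NF-Y box at 35 and a CHR at 15 bases before the start.
Cdkn1a: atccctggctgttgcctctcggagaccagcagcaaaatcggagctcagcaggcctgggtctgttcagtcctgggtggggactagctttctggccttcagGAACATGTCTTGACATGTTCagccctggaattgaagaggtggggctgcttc
Cdkn1b: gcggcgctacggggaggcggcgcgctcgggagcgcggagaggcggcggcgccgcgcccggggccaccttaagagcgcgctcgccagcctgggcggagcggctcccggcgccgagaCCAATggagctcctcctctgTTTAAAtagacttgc

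**Figure D2:**
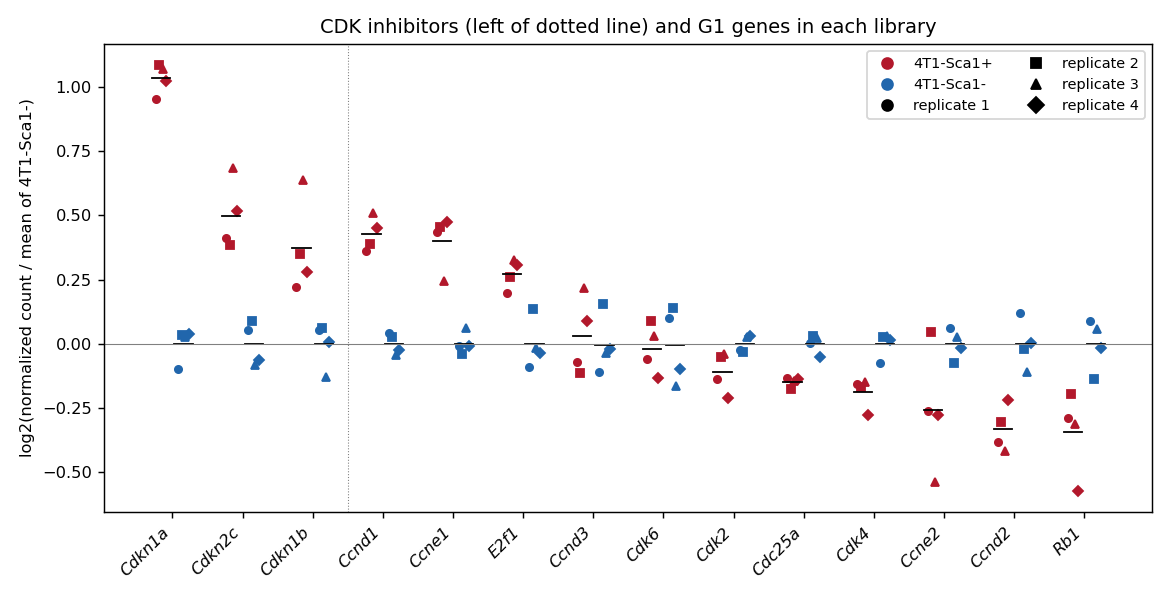
Each point is 1 library's normalized count as log2 of its ratio to the 4T1-Sca1- mean (y axis), in red for 4T1-Sca1+ and blue for 4T1-Sca1- cells, with marker shapes for replicates 1 to 4 and black bars for group means. The 3 inhibitors left of the dotted line, Ccnd1, Ccne1 and E2f1 lie above the 4T1-Sca1- points, and Ccnd2, Cdk4, Cdc25a and Rb1 lie below.

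The G1 genes split by member. Of 11 tested, 3 were higher and 5 lower, where 31.3% and 30.2% of all tested genes were, and 3 were not called. The share called was 72.7%, against 61.5% of all tested genes. Their median log2FC was -0.10, beside 0.01 over all tested genes. Ccnd1, a D-type cyclin, was higher in 4T1-Sca1+ cells. Its normalized counts were 35395, 36132, 39275 and 37729 in 4T1-Sca1+ and 28414, 28067, 26738 and 27075 in 4T1-Sca1- libraries. The groups were far apart relative to their spread, and the log2FC was 0.44 (SE 0.04, edgeR adjusted p of 8.52e-08). Ccnd2 went the other way, with 1079, 1141, 1053 and 1209 in 4T1-Sca1+ and 1530, 1390, 1304 and 1412 in 4T1-Sca1- libraries. No 4T1-Sca1+ library reached a 4T1-Sca1- library for Ccnd2, and the log2FC was -0.32 (SE 0.06, edgeR adjusted p of 0.000133). Ccnd3 overlapped between the groups, at 2041 ± 218 and 1990 ± 160 normalized counts, with a 95% interval of its log2FC from -0.09 to 0.19. Per length, Ccnd1 stood far above the other D cyclins, at 521 ± 23.0 RPKM in 4T1-Sca1+ and 384 ± 10.5 in 4T1-Sca1- cells. Ccnd3 was at 15.4 ± 1.61 and 14.9 ± 1.17 RPKM, and Ccnd2 at 7.88 ± 0.5 and 9.81 ± 0.645 RPKM.

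The kinase partners of the D cyclins were not called higher. Cdk4 had normalized counts of 8688, 8625, 8732 and 7992 in 4T1-Sca1+ and 9203, 9866, 9894 and 9800 in 4T1-Sca1- libraries. All 4 of the 4T1-Sca1+ values lay below the 4T1-Sca1- values, with a log2FC of -0.17 (SE 0.04, edgeR adjusted p of 0.00213). Cdk6 overlapped, at 655.8 ± 44.3 and 663.9 ± 68.3, with an interval of the log2FC from -0.16 to 0.14. In RPKM, Cdk4 was at 173 ± 6.92 and 195 ± 6.6, and Cdk6 at 3.1 ± 0.206 and 3.11 ± 0.314.

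The E-type cyclins, which switch on Cdk2 at the G1/S boundary, moved apart. Ccne1 had normalized counts of 654, 664, 573 and 673 in 4T1-Sca1+ and 480, 470, 504 and 481 in 4T1-Sca1- libraries. Its lowest 4T1-Sca1+ library, replicate 3, was still above all 4T1-Sca1- libraries, and the log2FC was 0.42 (SE 0.06, edgeR adjusted p of 1.88e-05). Ccne2 had 306, 379, 252 and 303 in 4T1-Sca1+ and 383, 348, 374 and 363 in 4T1-Sca1- libraries, which overlap. Its log2FC was -0.23 (SE 0.09, edgeR adjusted p of 0.0415), and the call was lost when any of 6 of the 8 libraries was left out, with a log2FC of -0.15 without 4T1-Sca1+ replicate 3. With GC-corrected offsets it was -0.09 and not called. Cdk2 was at 1216 ± 68.2 and 1312 ± 29.4 normalized counts and was not called (log2FC -0.10, SE 0.05, edgeR adjusted p of 0.102). Without 4T1-Sca1+ replicate 3 it was called, at -0.12.

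E2f1, an activating E2F factor, was higher, at 1377, 1438, 1507 and 1486 in 4T1-Sca1+ against 1127, 1318, 1188 and 1170 in 4T1-Sca1- libraries (log2FC 0.29, SE 0.05, edgeR adjusted p of 0.000166). Cdc25a, the phosphatase that activates Cdk2, was lower, at 1791, 1737, 1776 and 1787 against 1968, 2004, 1995 and 1894 (log2FC -0.14, SE 0.04, edgeR adjusted p of 0.0108). Neither gene's groups overlapped. With GC-corrected offsets E2f1 was still called but at 0.11, and Cdc25a was not called, at -0.08. Cdc25a was not called with library totals alone either (-0.09). Rb1 encodes the retinoblastoma protein that E2f1 is released from. It was scarce, at 83.2, 88.8, 81.8 and 68.3 normalized counts in 4T1-Sca1+ and 108, 92.4, 106 and 100 in 4T1-Sca1- libraries. The log2FC was -0.33 (SE 0.12, edgeR adjusted p of 0.021), and it was no longer called without 4T1-Sca1+ replicate 4 (-0.25) or without 4T1-Sca1- replicate 1 (-0.31) or 3 (-0.31), nor with GC-corrected offsets (-0.22). The 2 other pocket proteins, which are not members, were higher in 4T1-Sca1+ cells. Rbl1 (p107) was at 821.4 ± 24.3 against 675.7 ± 43.6 normalized counts and Rbl2 (p130) at 401.8 ± 12.8 against 326.0 ± 12.5, with log2FCs of 0.29 and 0.31 and edgeR adjusted p of 0.000248 and 0.000327. Of the 11 G1 genes, 3 were lower without any 1 of the same 3 libraries, and 2 with offsets corrected for GC content, in place of 5. Part of the exons of Ccnd1 (23.4% of bases), Cdk4 (19.7%), Ccne2 (17.4%) and Rb1 (6.8% and 8.1%) share bases with opposite-strand genes that were also counted. Whether strand was used in counting is not given, so reads there may come from either gene. Over all libraries Ccnd1 had 262682 counts beside 1805 for LTO1, and Cdk4 72858 beside 16076 for Tspan31. Ccne2 had 2712 beside 6750 for Ints8, and Rb1 727 beside 891 for Lpar6 and 6228 for Rcbtb2.

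The S-phase genes were close to level as a group. Of 15 tested, 5 were higher and 2 lower, where 31.3% and 30.2% of all tested genes were, and 8 were not called. The share called was 46.7%, against 61.5% of all tested genes, and the median log2FC was 0.05. Pcna, the sliding clamp of the replication fork, was at 2646, 2763, 2401 and 2461 in 4T1-Sca1+ and 1900, 2021, 2052 and 2084 in 4T1-Sca1- libraries. Its groups did not overlap, and the log2FC was 0.36 (SE 0.05, edgeR adjusted p of 1.1e-05). Gins2, a subunit of the replicative helicase, was at 593.3 ± 29.5 and 481.2 ± 34.4 normalized counts (log2FC 0.32, edgeR adjusted p of 0.000387). Of its exon bases 67.3% overlap Gse1 on the opposite strand, so its value is uncertain. Cdt1, which loads the helicase onto origins, was at 2425, 2534, 2891 and 2352 in 4T1-Sca1+ and 2262, 2403, 2118 and 2188 in 4T1-Sca1- libraries, which overlap. Its log2FC was 0.20 (SE 0.06, edgeR adjusted p of 0.00802), and it was 0.13 without 4T1-Sca1+ replicate 3 and 0.03, not called, with GC-corrected offsets. Geminin (Gmnn), which inhibits Cdt1, and Cdc6, which loads the helicase with Cdt1, each had a log2FC of 0.05, and neither was called.

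The subunits of ribonucleotide reductase, which makes deoxynucleotides, went in opposite directions. Rrm2, the small subunit, was at 5796, 5691, 5004 and 5286 in 4T1-Sca1+ and 4752, 4320, 4534 and 4494 in 4T1-Sca1- libraries. Every 4T1-Sca1+ library was above every 4T1-Sca1- library (log2FC 0.28, SE 0.05, edgeR adjusted p of 0.00015). Rrm1, the large subunit, was at 6152, 6273, 5374 and 5988 in 4T1-Sca1+ and 7062, 6622, 7008 and 7086 in 4T1-Sca1- libraries, here with every 4T1-Sca1+ library below (log2FC -0.21, SE 0.05, edgeR adjusted p of 0.00152). With GC-corrected offsets Rrm1 was at -0.12, still called. Tyms, thymidylate synthase, was at 1592 ± 115 and 1594 ± 55.6 normalized counts, with a log2FC of 0.01 and an interval from -0.10 to 0.13.

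The 6 subunits of the MCM2-7 helicase ring stayed within 0.2 of 0. Mcm7 was called higher (log2FC 0.19) and Mcm3 lower (-0.12), and Mcm2, Mcm4, Mcm5 and Mcm6 were not called. Mcm6 (0.12, edgeR adjusted p of 0.055) was close to the threshold and gained a call without 4T1-Sca1+ replicate 3 or 4 or 4T1-Sca1- replicate 4, and with upper-quartile scaling, library totals alone, GC-corrected offsets or at least 10 counts in every library. Mcm5 was at 5438, 5478, 5256 and 5128 in 4T1-Sca1+ and 5248, 5443, 5318 and 5430 in 4T1-Sca1- libraries, with an interval of its log2FC from -0.08 to 0.09. The call of Mcm3 was lost without 4T1-Sca1+ replicate 3 or 4 or without 4T1-Sca1- replicate 3 or 4, at log2FCs of -0.0995, -0.1028, -0.1238 and -0.0982, and with library totals alone it was -0.08. Cdc45, which joins the MCM ring and GINS at the fork, had a log2FC of -0.09 and was not called.

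E2F sites were found in 6 of 13 S-phase promoters (46.2%), against 2.26% of all promoters and 1 of 24 G2/M promoters (4.17%). The promoter of Mcm5 (chr8:75109359-75109508, plus strand) is shown as one whose gene did not differ. Its capitals mark an E2F site on the opposite strand, 149 bases before the start, and NF-Y boxes at 77 and 22 bases before it.
Mcm5: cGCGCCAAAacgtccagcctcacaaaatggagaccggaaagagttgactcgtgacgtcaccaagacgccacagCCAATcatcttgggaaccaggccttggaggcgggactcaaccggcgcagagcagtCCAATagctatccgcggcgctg

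The G2/M genes changed by small amounts. Of 29 tested, 13 were higher and 3 lower, where 31.3% and 30.2% of all tested genes were, and 13 were not called. The share called was 55.2%, against 61.5% of all tested genes. Their median log2FC was 0.08, and 21 of them (72.4%) lay within 0.2 of 0, compared with 42.7% of all genes, not matched for level. With offsets corrected for GC content, 17 were higher and 5 lower. Ccnf, the F-box cyclin of an SCF ubiquitin ligase, changed most. Its normalized counts were 1644, 1736, 1685 and 1693 in 4T1-Sca1+ and 1049, 1111, 1154 and 1115 in 4T1-Sca1- libraries. The 2 sets lay far apart, 1.54-fold, with a log2FC of 0.62 (SE 0.05, edgeR adjusted p of 4.29e-09). The next were parts of the machinery that ends mitosis and marks the centromere. Ube2c, the ubiquitin-conjugating enzyme of the anaphase-promoting complex, was at 4383, 4356, 4978 and 4628 in 4T1-Sca1+ and 3658, 3499, 3343 and 3362 in 4T1-Sca1- libraries (log2FC 0.42, SE 0.05, edgeR adjusted p of 1.29e-06). Cenpa, the histone H3 variant of centromeres, was at 3045, 3015, 3329 and 3102 against 2357, 2446, 2372 and 2325 (log2FC 0.41, SE 0.04, edgeR adjusted p of 4.81e-07). Aurkb, the kinase of the chromosomal passenger complex, was at 2835, 2988, 3011 and 3034 against 2400, 2510, 2475 and 2442 (log2FC 0.29, SE 0.04, edgeR adjusted p of 1.67e-05). For each of these the lowest 4T1-Sca1+ library exceeded the highest 4T1-Sca1- library.

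Cdc20, which activates the anaphase-promoting complex, was higher with a log2FC of 0.28, and Bub1b, a kinase of the spindle checkpoint that restrains Cdc20, with one of 0.26. Cenpf (0.24), Cdc25c (0.22), Ccnb2 (0.19), Nusap1 (0.19), Tpx2 (0.17), Ccna2 (0.11) and Aurka (0.10) made up the rest of the 13. Ccna2, cyclin A2, was at 4063, 4264, 3893 and 4218 in 4T1-Sca1+ and 3879, 3689, 3844 and 3939 in 4T1-Sca1- libraries, which overlap. Its edgeR adjusted p was 0.0387, and the calls of Ccna2 and of Aurka (edgeR adjusted p of 0.0374) were lost without any library other than 4T1-Sca1+ replicate 3. The 3 lower genes act together at the end of mitosis or in cytokinesis. Birc5 (survivin), a partner of Aurkb in the passenger complex, was at 3228, 3144, 3008 and 3124 in 4T1-Sca1+ and 3586, 3498, 3651 and 3607 in 4T1-Sca1- libraries (log2FC -0.18, SE 0.04, edgeR adjusted p of 0.00112). Prc1, which bundles microtubules of the central spindle, had a log2FC of -0.18 (edgeR adjusted p of 0.00452) and Kif20a, a kinesin of the same structure, also one of -0.18 (edgeR adjusted p of 0.00291). Their groups did not overlap either. With GC-corrected offsets Prc1 was at -0.09 and Ccna2 at 0.17, both still called. Of the exon bases of Kif20a 29.3% overlap Cdc23 on the opposite strand, which was itself lower (log2FC -0.40).

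Mki67, Top2a and Cdk1, all widely used as proliferation markers, were not called. Mki67, which encodes the Ki-67 antigen, was at 12686, 12876, 11443 and 12915 in 4T1-Sca1+ and 12023, 11658, 11626 and 12212 in 4T1-Sca1- libraries (log2FC 0.08, SE 0.05, edgeR adjusted p of 0.121). In 3 of 4 4T1-Sca1+ libraries Mki67 was above every 4T1-Sca1- library, and in replicate 3 it was below every one of them. Without replicate 3 it was called, with a log2FC of 0.12, and so it was on all 8 libraries with upper-quartile scaling (0.11), library totals alone (0.13) and offsets corrected for GC content (0.14). Top2a, the topoisomerase that untangles sister chromatids, was at 17069, 17389, 14785 and 17230 against 17547, 15964, 16942 and 17195, an overlap with replicate 3 lowest of all 8 (log2FC -0.01, interval from -0.12 to 0.10). It was called with GC-corrected offsets, at 0.08. Cdk1, the mitotic kinase, was at 5335, 5206, 4838 and 5229 against 5423, 4881, 5299 and 5289 (log2FC -0.01, interval from -0.11 to 0.09). Its partner Ccnb1 was at 939.7 ± 83.5 and 995.2 ± 39.8 normalized counts (log2FC -0.07, interval from -0.20 to 0.06), while Ccnb2, the other B-type cyclin, was called higher. Each interval gives the log2FCs compatible with 4 libraries a group, so a small difference either way remains possible for these genes. Plk1, Foxm1, Mybl2, Bub1, Mad2l1, Ttk, Cenpe, Kif11 and Kif23 were not called, with log2FCs from -0.10 to 0.08.

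**Figure D3:**
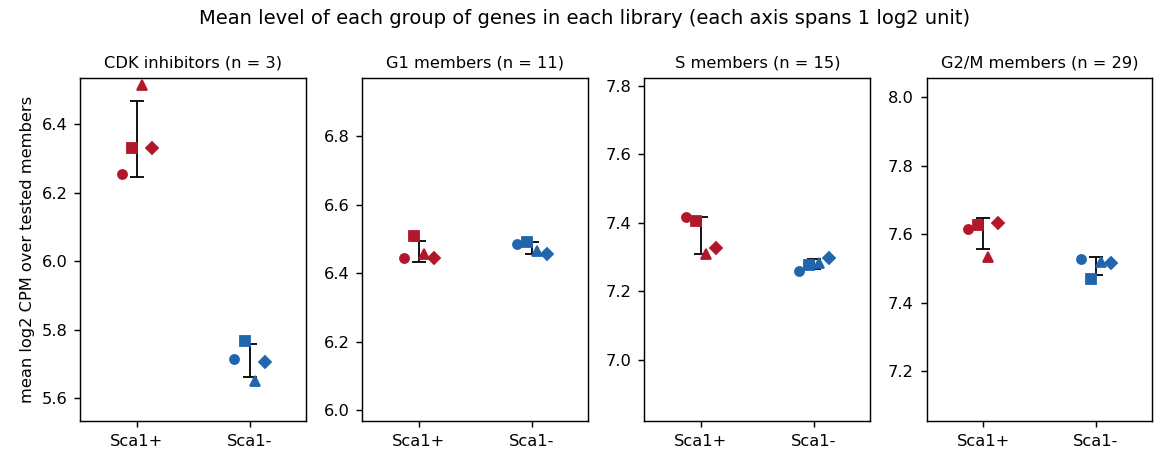
Each point is the mean log2 CPM (counts scaled to library size) over the tested members of a group in 1 library (y axis, a span of 1 log2 unit in each panel), with circles, squares, triangles and diamonds for replicates 1 to 4 and bars for the mean ± SD of 4 libraries. The inhibitors separate clearly, by 0.65, while the G1, S and G2/M means differ by -0.01, 0.08 and 0.10.

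Averaged over members, the inhibitors stood apart far more than the phase genes. Their mean log2 CPM was 6.36 ± 0.11 in 4T1-Sca1+ and 5.71 ± 0.05 in 4T1-Sca1- libraries (SD, n = 4). The G1 mean was 6.46 ± 0.03 against 6.47 ± 0.02, and the S mean 7.36 ± 0.05 against 7.28 ± 0.02. The G2/M mean was 7.60 ± 0.05 against 7.51 ± 0.03. For S and for G2/M the lowest 4T1-Sca1+ library lay just above the highest 4T1-Sca1- library, by 7.3098 to 7.2973 and by 7.5343 to 7.5262. The S mean minus the G2/M mean was -0.24 ± 0.05 in 4T1-Sca1+ and -0.23 ± 0.03 in 4T1-Sca1- libraries, which differ by -0.01, less than the spread of either group. This compares RNA levels of the listed genes and does not measure the share of cells in each phase.

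4T1-Sca1+ replicate 3 took part in these results. It was the lowest of its group for 18 of 29 G2/M members (62.1%), where it was lowest for 35.4% of all genes. For 7 of the 29 (24.1%) it was the highest, where it was highest for 33.7% of all genes. The median G2/M member lay 0.11 below the other 3 libraries on the log2 scale. Without it, 14 G2/M members were higher and 3 lower (median log2FC 0.06), 6 S members were higher and 1 lower (0.08), 3 G1 members were higher and 5 lower (-0.12), and all 3 tested inhibitors stayed higher (0.45). Its total count, 15041995, was the lowest of the 4T1-Sca1+ libraries.

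**Figure D4:**
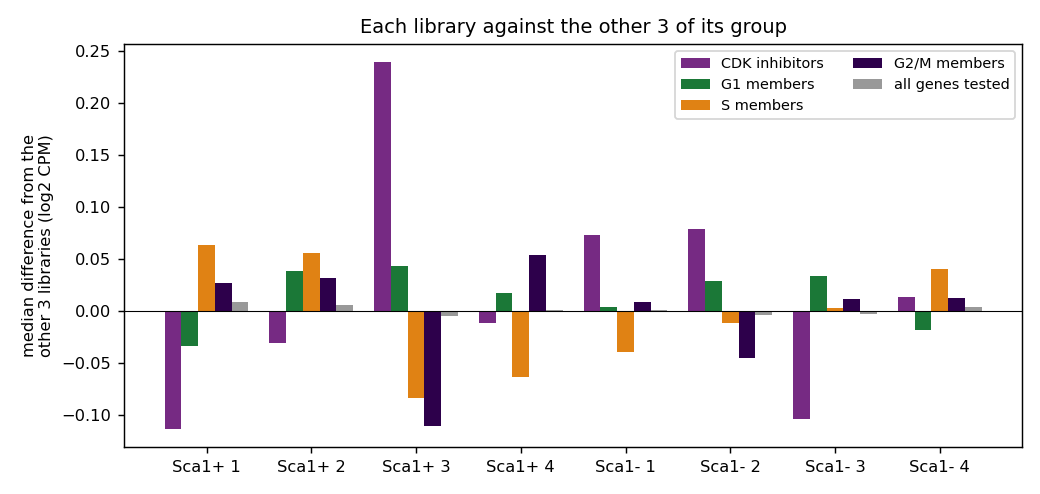
Bars give the median difference of each library from the mean of the other 3 of its group (y axis, log2 CPM) over the CDK inhibitors, G1, S and G2/M members and all tested genes. In 4T1-Sca1+ replicate 3 the G2/M median was -0.11 and the S and G2/M bars point down while the inhibitors point up.

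Promoters of G2/M members shared motifs, among genes called higher and genes not called alike. Of the 24 G2/M promoters found, 19 (79.2%) held both a CHR and an NF-Y box, against 10.7% of all 32851 promoters. By gene these were 18 of 23. Both motifs were present in 8 of 9 promoters (88.9%) of the higher genes and in 9 of 12 (75.0%) of those not called. Only 2 of the lower genes had an entry, and 1 of them, Prc1, held both motifs. It did so in 2 largely overlapping windows, which makes 2 of 3 promoters (66.7%). The examples set Cdc20, called higher, beside Cdk1, Top2a and Mki67, not called. In Cdc20 (chr4:118437344-118437493, minus strand) a CHR lies at 18 and NF-Y boxes at 53 and 8 bases before the start. In Cdk1 (chr10:69352913-69353062, minus strand) CHR copies lie at 71 and 15, NF-Y boxes at 80 and 48, and an E2F site at 131. In Top2a (chr11:99024190-99024339, minus strand) a CHR lies at 23 and NF-Y boxes at 149, 98, 78 and 58. In Mki67 (chr7:135716380-135716529, minus strand) CHR copies lie at 116 and 98 and an NF-Y box at 141.
Cdc20: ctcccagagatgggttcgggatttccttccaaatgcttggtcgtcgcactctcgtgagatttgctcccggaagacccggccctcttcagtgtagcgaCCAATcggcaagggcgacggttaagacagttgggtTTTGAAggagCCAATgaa
Cdk1: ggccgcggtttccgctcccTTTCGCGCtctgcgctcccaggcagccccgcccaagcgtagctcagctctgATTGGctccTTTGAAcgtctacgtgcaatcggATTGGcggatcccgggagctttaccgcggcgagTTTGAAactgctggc
Top2a: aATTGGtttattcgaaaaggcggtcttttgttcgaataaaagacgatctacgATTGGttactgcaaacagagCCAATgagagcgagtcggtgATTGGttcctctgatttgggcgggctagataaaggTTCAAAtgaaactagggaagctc
Mki67: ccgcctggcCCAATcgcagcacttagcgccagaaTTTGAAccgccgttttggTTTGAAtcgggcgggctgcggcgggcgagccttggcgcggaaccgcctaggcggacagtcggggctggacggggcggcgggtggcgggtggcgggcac

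**Figure D5:**
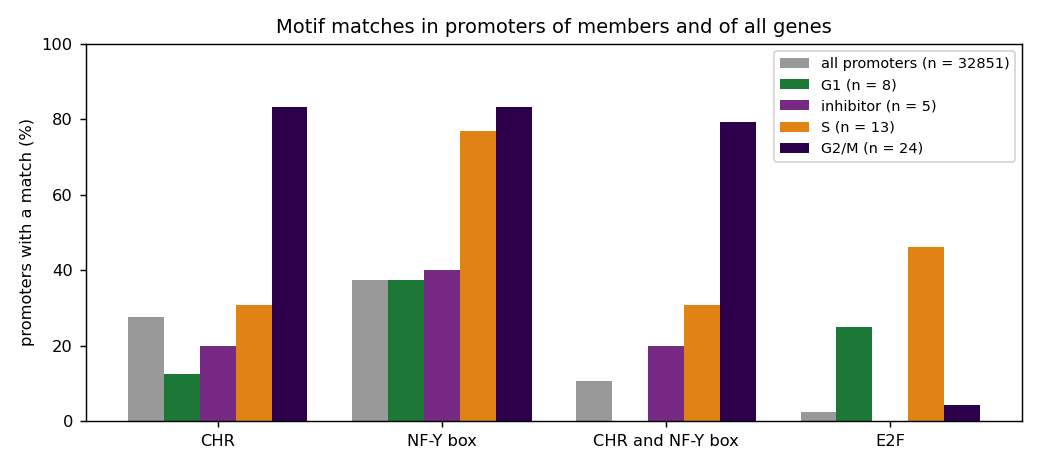
Bars give the percent of RefSeq promoters (y axis) with at least 1 match to each motif on either strand, for all promoters, G1, inhibitor, S and G2/M members. A CHR with an NF-Y box was found in 79.2% of G2/M promoters and 10.7% of all promoters, and an E2F site in 46.2% of S promoters and 2.26% of all.

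Other genes of the same pathways, listed without the members, showed changes in both directions. Among all tested genes 31.3% were higher and 30.2% lower, so 61.5% were called. The share called was 66.7% of the further replication genes, 59.6% of the further mitosis genes and 52.9% of the anaphase-promoting complex list. Of 42 further replication genes, 10 were higher and 18 lower (median log2FC -0.02), with Dut (0.48) and Uhrf1 (0.36) highest and Pola1 (-0.75) and Orc2 (-0.60) lowest. Pola1, the catalytic subunit of DNA polymerase alpha, was at 928.4 ± 42.7 against 1577 ± 96.3 normalized counts (edgeR adjusted p of 3.2e-09). Of 47 further mitosis genes, 18 were higher and 10 lower (median 0.03), from Cdc25b (0.61) and Cenpm (0.54) down to Cks2 (-0.54) and Cenpk (-0.62). Cdc25b, a phosphatase that activates Cdk1, was at 2539 ± 46.8 against 1680 ± 34.0 normalized counts (edgeR adjusted p of 1.44e-09). Of 17 genes listed for the anaphase-promoting complex (subunits, the activator Fzr1, the inhibitor Fbxo5 and the ubiquitin-conjugating enzyme Ube2s), 1 was higher (Anapc2, 0.16) and 8 lower (median -0.11), with Anapc10 (-0.51) and Cdc23 (-0.40) lowest. That stands beside the higher Ube2c and Cdc20, which act with this complex.

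Among 16 E2F, pocket protein and DREAM components, 6 were higher and 3 lower (median 0.06), with Lin37 (0.60) and E2f2 (0.51) highest and E2f7 (-0.48), a repressor E2F, and Lin54 (-0.37) lowest. The share called was 56.2%, against 61.5% of all tested genes (31.3% higher and 30.2% lower). A list of 9 further tested regulators of CDKs held inhibitors and inhibitory kinases, the CDK-activating kinase (Cdk7, Ccnh and Mnat1) and the F-box proteins Skp2 and Fbxw7. Of these, 4 were higher and 2 lower (median 0.17, 66.7% called). Cdkn2d, the INK4 protein p19, was at 513.1 ± 21.8 against 384.8 ± 32.4 normalized counts (log2FC 0.43, edgeR adjusted p of 3.14e-05), and Wee1, which holds Cdk1 inactive, had a log2FC of 0.33. The other 2 higher were Skp2 (0.25), which degrades p27, and Pkmyt1 (0.22), an inhibitory kinase of Cdk1. Cdkn3, a CDK-associated phosphatase (-0.48), and Ccnh (-0.39) were lower. Cdkn2a and Cdkn2b were not among the genes counted and were not analysed here. With the members set aside, the S list of the Seurat package had 7 of 30 genes higher and 11 lower (median -0.03, 60.0% called), with Ung (0.38) and Uhrf1 highest and Pola1 and Prim1 (-0.51) lowest. Its G2/M list without members had 16 of 35 higher and 5 lower (median 0.04, 60.0% called), with Psrc1 (0.79) and Hjurp (0.53) highest and Cks2 and Ect2 (-0.34) lowest. Uhrf1, Pola1, Cks2 and others stand in more than 1 of these lists.

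Targets of p53 other than Cdkn1a were listed as well. Of 19 tested, 3 were higher and 10 lower (31.3% and 30.2% of all tested genes), with a median log2FC of -0.21, beside 0.01 over all tested genes. Trp53inp1 (1.88, from 19.64 ± 6.55 to 72.81 ± 9.41 normalized counts) and Ddit4 (0.83) were the highest and Plk2 (-1.60) and Btg2 (-0.60) the lowest called. Mdm2, whose product degrades p53, was not called, at 1310 ± 21.5 against 1352 ± 70.9 normalized counts (log2FC -0.03). Of 14 DNA damage checkpoint genes, 4 were higher and 4 lower (median -0.01), with Chek2 (0.73) and Mdm4 (0.39) highest and Trp53 (-0.23) lowest. The share called was 57.1%, against 61.5% of all tested genes. Trp53, which encodes p53, was at 1201 ± 67.2 against 1416 ± 80.2 normalized counts (edgeR adjusted p of 0.0016). The lists describe these libraries, and nothing is called particular to any of them.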

How the data were processed

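RNA was measured in 8 libraries, 4 per group, numbered 1 to 4 in the labels. Per the labels, TruSeq libraries were sequenced on a NextSeq 500. The submitters' processing notes name cutadapt 1.16, STAR 2.5.3a and the builds GRCm38 and mm10, while the counting tool, annotation and use of strand are not given in the sources used here. The authors deposited raw counts for 16341 genes, and also a normalized signal table (15372 genes) that equals the counts divided by DESeq2 size factors (relative difference at most 5.11e-15). Names, positions and exon lengths came from GENCODE M21 (GRCm38), matched by Ensembl ID for 16202 genes.

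The test of the deposited counts was that of edgeR 4.0.16 (R 4.3.3): filterByExpr (11717 genes), TMM, glmQLFit and glmQLFTest, two-sided, with Benjamini-Hochberg adjustment over all tested genes, called at an adjusted p under 0.05. SE is the absolute log2FC over the square root of F, and intervals are 95%. Log2 CPM used a prior count of 2. Alternatives were DESeq2 1.42.0, limma 3.58.1 (voom, and log2 of the deposited signal plus 1), other scalings and filters, GC-corrected offsets (99.1% of tested genes had a GC content), stricter thresholds, a replicate block and leaving out each library. Same-numbered libraries did not deviate together (correlations 0.0957, -0.15, -0.0339 and -0.00107), so the numbers were not used as pairs. Reads were not tagged by molecule and may be PCR copies.

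Members and lists were chosen with earlier results of these data known. The Seurat lists are those of Seurat 5.3.0. Named by rule were all G1 members and inhibitors, the 4 highest and 4 lowest S and G2/M members, Pcna, Mki67, Top2a, Ccna2, Ccnb1, Cdk1, any member changed at least 1.5-fold, and the 2 highest and 2 lowest called genes of each list. The other members are given because each is accounted for, and the remaining genes and the promoters shown were picked after values were seen.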

Additional observations from a re-analysis of the deposited data

Results flagged for a closer look

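Dixon's gap test within groups of 4 libraries singled out 8 values over 124 tests, where chance flags about 1 in 20 (6.2). For 3 members it was 4T1-Sca1+ replicate 3 that lay below the rest, with normalized counts of 11443 for Mki67 (others 12686 to 12915), 14785 for Top2a (others 17069 to 17389) and 882.7 for Ttk (others 1057 to 1084). Cdk4 had 7992 in 4T1-Sca1+ replicate 4 (others 8625 to 8732) and 9203 in 4T1-Sca1- replicate 1 (others 9800 to 9894). Cdkn1a had 316.1 in 4T1-Sca1- replicate 1 (others 344.0 to 347.0), and Rrm1 had 6622 in 4T1-Sca1- replicate 2 (others 7008 to 7086). Kif20a had 5405 in 4T1-Sca1- replicate 4 (others 4865 to 4912). What sets these values apart was not tested.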

How the results depend on the processing

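No member was called with the opposite sign under any alternative. Members higher numbered 21 to 29 and members lower 6 to 11 under every setting but the requirement of a 1.5-fold change, which by its construction left 2 higher and 0 lower. At an adjusted p under 0.01, 6 were lower. With single libraries left out, 22 to 26 were higher and 7 to 11 lower. With library totals alone the median log2FC was -0.0541 for G1 and 0.1242 for G2/M members, where the median of all genes also moved to 0.0502, and leaving out libraries gave G1 medians of -0.1229 to -0.0647, the last without 4T1-Sca1+ replicate 4. With the replicate number as a block, 22 members were higher and 9 lower, and Mcm3, Ccna2 and Aurka lost their calls. Limma-voom changed no member's call.

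Members near 0 changed sign, and the cause was not tested. Mcm5 went to -0.0093 with DESeq2 and with its size factors, -0.0097 without a filter and -0.0096 on the deposited signal. With upper-quartile scaling the log2FC was 0.0206 for Cdk6, 0.0223 for Cdk1 and 0.0167 for Top2a, and with library totals alone 0.0345, 0.0359 and 0.0306. At 10 or more counts in every library Cdk6 was at 0.0025 and Cdk1 at 0.0043. GC-corrected offsets gave -0.0882 for Ccnd3, 0.0577 for Cdk6, -0.0237 for Mcm5, 0.0099 for Ccnb1, 0.0365 for Cdk1, 0.0774 for Top2a and 0.0044 for Kif11. Under those offsets 8 members gained a call, Mki67 and Top2a among them, and Ccne2, Cdc25a, Rb1 and Cdt1 lost theirs. With libraries left out in turn, the range was -0.0177 to 0.0997 for Ccnd3, -0.0603 to 0.0355 for Cdk6, -0.0175 to 0.0201 for Mcm5, -0.0435 to 0.0201 for Cdk1 and -0.0445 to 0.0377 for Top2a.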
